A study of Mus musculus with 6 samples.

Results

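The Myc and Pvt1 locus of mouse chromosome 15 was taken, by a fixed window of positions, as 43 cap analysis of gene expression (CAGE) peaks from 61816712 to 62095973, of 158966 peaks in the series. CAGE reads the capped 5′ ends of RNA, so a peak of tags is taken here to mark a place where transcription starts. Peaks are called promoters on that reading, which was not tested peak by peak. The 22 plus-strand peaks from 61816932 to 61821664 were assigned to Myc, the 15 plus-strand peaks from 61869551 onwards to Pvt1, and the 6 minus-strand peaks were called antisense. Positions are as deposited and the only mouse build named in the submitters' processing notes is mm9. The files carry no gene names, so the assignment rests on position. The start of the first Myc peak and that of the most active Pvt1 peak lay 52619 bp apart, and the starts of the 2 genes lie 52645 bp apart in the RefSeq gene table of the later build GRCm38. The Myc peaks spanned 4732 bp, within the gene's length of 5021 bp in that table. The farthest Pvt1 peak ended 226422 bp from the start of the most active one, past the gene's 222230 bp in that table, and it held 1 tag in all.

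The libraries come from Ba/F3, a mouse pro-B cell line that normally needs interleukin 3 and that survives without it once an activated kinase is introduced. All 6 carry FLT3-ITD, an internal tandem duplication of the FLT3 receptor tyrosine kinase, and the 3 libraries of the second group also carry D835Y, an amino acid change in the activation loop of that kinase. These 3 are called the double mutant. Groups follow the titles, since a second label counts the substitution up from D835 to D837 within the double mutant. Every title also holds the letters Co before the replicate number, which were not interpreted here. The labels list serum and antibiotics in the medium and name no cytokine or drug, and they do not give the promoter of the FLT3 construct, whether the lines are clones, or whether replicates were separate cultures, so p-values reflect only how far these libraries vary, which can be technical variation.

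Myc encodes a basic helix-loop-helix transcription factor that binds DNA with its partner Max and drives genes of growth, ribosome production and the cell cycle. The gene is known to start from a pair of promoters close together, P1 and, downstream of it, P2, of which P2 usually gives more of the RNA, and its RNA and protein are short-lived. Pvt1 is the long noncoding RNA gene next to it, known as a site of retroviral insertion and translocation in lymphoid tumours, and Myc is a well-known target of signalling from cytokine receptors and activated kinases in blood cells.

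Libraries held 5884258 to 13977941 tags, so 1 tag was worth 0.0715 to 0.170 CPM (tags scaled to a library total of 1000000), and where a library has 0 tags its level can still be 0.215 to 0.510 CPM (3 tags, counting error only). Promoters were tested where at least 1 CPM was reached in at least 3 libraries, which left 19162 in the genome and 11 of the 43 here: 10 of Myc, 1 of Pvt1 and 0 antisense. Differences are of log2(CPM + 1), the FLT3-ITD mean taken from that of the double mutant, so changes of low promoters come out too small, and adjusted p-values are from limma over all promoters tested unless another fit is named. Over all 19162, the median difference was 0.05.

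Capped RNA ends at the Myc promoters were more abundant in the double mutant, at close to 2 times the FLT3-ITD level. These are RNA levels, and more initiation and slower decay of the RNA cannot be told apart in them. The 22 Myc peaks together summed to 326 ± 5.1 CPM in FLT3-ITD and to 634 ± 57 CPM in double-mutant cells (SD, n = 3 each), a ratio of means of 1.95. By library the sums were 321, 326 and 331 CPM in FLT3-ITD and 658, 676 and 569 CPM in the double mutant. Every double-mutant library stood above every FLT3-ITD library. In bulk RNA, more cells with active Myc and more Myc RNA per cell cannot be told apart. The log2 difference was 0.95 (SE 0.10, 95% interval 0.73 to 1.18, limma adjusted p = 6.2e-05) in a fit of 13100 sums of neighbouring same-strand peaks, of which 28.3% passed and 16.4% were higher. Of those sums, 546 had a larger rise.

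Almost all of this came from 2 narrow peaks whose starts lay 163 bp apart. The first, at 61816932 to 61816952, had 69.5, 91.6 and 91.2 CPM in FLT3-ITD replicates 1 to 3 and 193, 196 and 167 CPM in those of the double mutant. It rose by 1.14 (SE 0.13, limma adjusted p = 4.6e-05), with means of 84.1 ± 12.6 and 185 ± 16.0 CPM (SD, n = 3 each). The groups were far apart, and FLT3-ITD replicate 1 was the lowest library. The second, at 61817095 to 61817111, had 237, 213 and 218 CPM in FLT3-ITD and 436, 461 and 381 CPM in the double mutant. It rose by 0.93 (SE 0.11, limma adjusted p = 7.0e-05), with means of 223 ± 12.7 and 426 ± 41.1 CPM (SD, n = 3 each). The second was the more active in every library, and its order and spacing relative to the first are those of P2 and P1, though no transcript model of this build was used to name them.

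**Figure D1:**
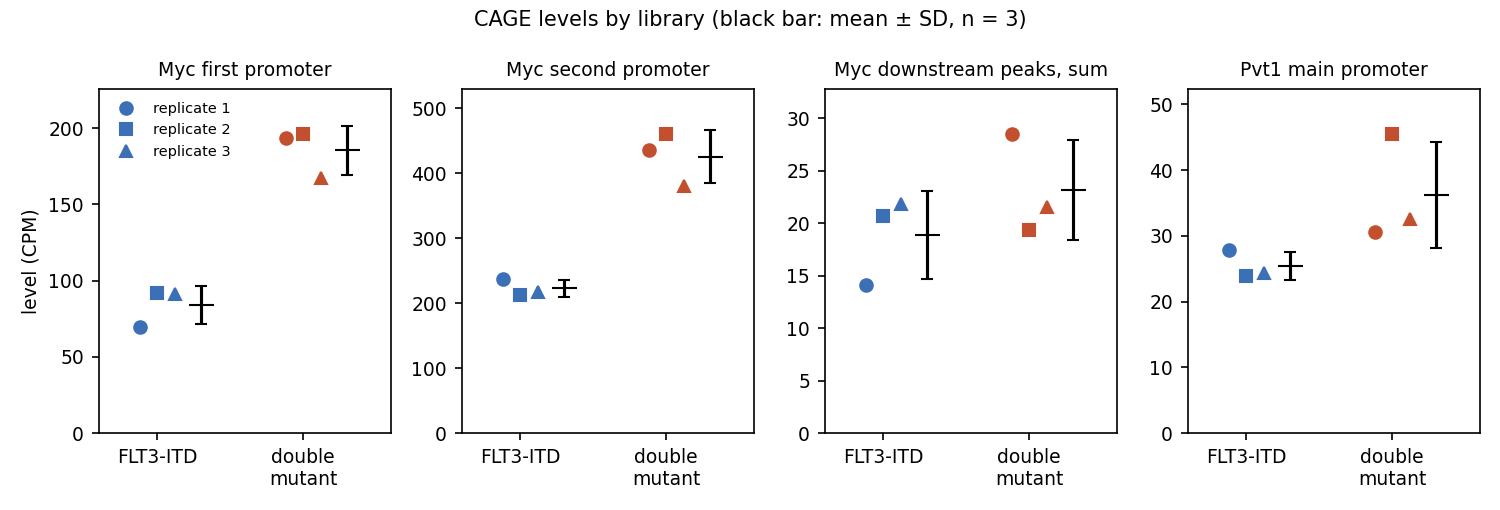
Level in CPM (vertical axes from 0) by library for the first and the second Myc promoter, the sum of the 20 Myc peaks downstream of them, and the main Pvt1 promoter; symbols are replicates and black bars the mean ± SD of 3 libraries. The groups stand apart for both Myc promoters and, more narrowly, for Pvt1 (highest FLT3-ITD library 27.8 CPM, lowest double-mutant library 30.6 CPM), while the downstream sums overlap.

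In pooled tags, the first promoter had 2291 in FLT3-ITD and 6734 in the double mutant, a ratio per library total of 2.25 (exact 95% interval 2.14 to 2.36). The second had 6175 and 15488, a ratio of 1.92 with an interval of 1.86 to 1.98. These intervals cover counting error only and leave out the spread between libraries. By mean level the second promoter ranked 419th and the first 1001st of the 19162 tested. Of all tested promoters, 2.41% rose more than the first and 4.02% more than the second.

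Of the 11 tested promoters of the locus, 4 passed the threshold, all higher in the double mutant, and 0 were lower, where 24.4% of all tested promoters passed, 14.1% higher and 10.4% lower. At 5 of the 11 the CPM ranges of the groups were separate, higher in the double mutant each time, against 24.2% of all tested promoters. They were the 4 that passed and the peak at 61819163, which reached the minimum mainly through the double-mutant libraries, so nothing is read from that count. With edgeR 3 of the 11 were higher (12.3% of all tested promoters) and with DESeq2 2, the first 2 Myc promoters (8.88% of all). At an unadjusted p under 0.05, 0 of the 11 were lower with limma, edgeR or DESeq2. In either direction, 7135 of all 19162 tested promoters reached that with limma, 7076 with edgeR and 5578 with DESeq2. Those totals were not split by direction, so nothing is read from the 0.

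**Figure D2:**
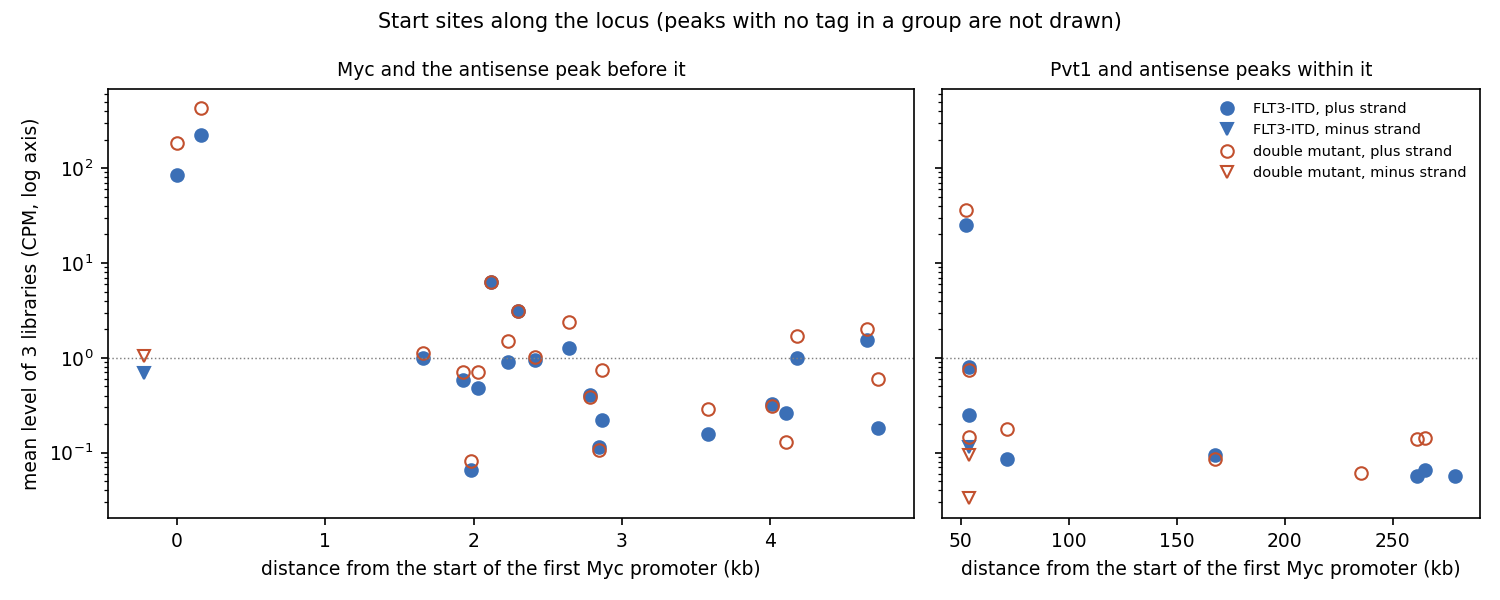
Mean level of each peak (CPM, log axis) against the distance in kb from the start of the first Myc promoter, for Myc on the left and Pvt1 on the right; filled symbols are FLT3-ITD, open ones the double mutant, triangles the minus strand, and the dotted line 1 CPM. The 2 plus-strand peaks near 0 and the peak near 53 kb stand above all others, and most peaks downstream have means near or under 1 CPM in both groups.

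Downstream of the pair, from 1661 bp on, lay 20 further Myc peaks, of which 8 could be tested. They had means between 0.91 and 6.35 CPM, and whether they are start sites of their own was not tested. Of the 8, 1 passed the threshold, where 24.4% of all tested promoters passed and 14.1% were higher. The one that passed, at 61819573 to 61819671, spanned 98 bp and had 1.07, 1.02 and 1.75 CPM in FLT3-ITD and 2.77, 2.07 and 2.37 CPM in the double mutant, a difference of 0.59 (SE 0.20, limma adjusted p = 0.044). Its values did not overlap, but it rests on 37 and 86 pooled tags. Its call ended in 8 of 13 alternatives (limma, edgeR or DESeq2 adjusted p up to 0.25). Among them were the fits without FLT3-ITD replicate 1 (limma adjusted p = 0.13) or 2 (0.14). The fits without double-mutant replicate 1 (limma adjusted p = 0.14) or 3 (0.095) were others. In these fits with a library left out the difference was 0.51 to 0.59.

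The most active of the 8, at 61819047 to 61819076, had 3.80, 8.67 and 6.58 CPM in FLT3-ITD and 7.80, 6.80 and 4.15 CPM in the double mutant. All 3 double-mutant values lay within the FLT3-ITD range, and the difference was 0.00 (95% interval -0.60 to 0.60, limma adjusted p = 0.995), so a rise as large as that of the first Myc promoter lies outside the interval. The next, at 61819234 to 61819308, had 2.15, 3.57 and 3.60 CPM against 4.95, 1.72 and 2.57 CPM, with a difference of -0.06 (95% interval -0.66 to 0.53, limma adjusted p = 0.89). Here the double-mutant libraries spread beyond the FLT3-ITD range on either side.

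The remaining 5 tested downstream peaks had means of 0.91 to 2.02 CPM and did not pass. The peak at 61819163 to 61819178 had 1.07, 0.68 and 0.97 CPM in FLT3-ITD and 1.51, 1.502 and 1.48 CPM in the double mutant, values that did not overlap, with a difference of 0.40 (limma adjusted p = 0.13). The peak at 61821111 to 61821122 differed by 0.44 (95% interval -0.06 to 0.95, limma adjusted p = 0.19). These 2 reached 1 CPM in all 3 double-mutant libraries and in 1 FLT3-ITD library, so they entered the test mainly through the group where they were higher. The peaks at 61818593 (difference 0.09), 61819346 (0.05) and 61821589 (0.22) had overlapping groups (limma adjusted p = 0.79, 0.90 and 0.55).

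The 12 Myc peaks under the minimum reached at most 1.19 CPM in any library. Of these, 2 had 0 tags in every library, and the other 10 held 77 pooled tags in FLT3-ITD and 143 in the double mutant.

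**Figure D3:**
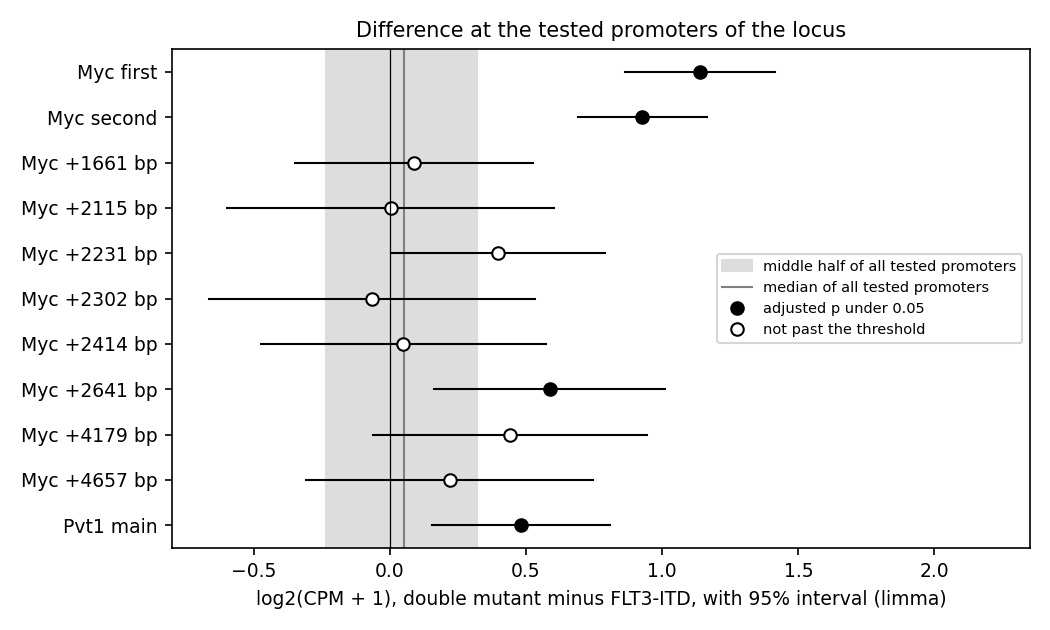
Difference in log2(CPM + 1) between the double mutant and FLT3-ITD for the 11 tested promoters, with unadjusted 95% intervals from limma; filled points have an adjusted p under 0.05, and the grey band runs from the lower to the upper quartile of all 19162 tested promoters. Both first Myc promoters lie at 0.93 or more, to the right of the band, which runs from -0.23 to 0.32, while 5 of the 8 downstream Myc peaks lie inside it.

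Summed over all 20, the downstream peaks had 14.1, 20.7 and 21.8 CPM in FLT3-ITD and 28.5, 19.4 and 21.6 CPM in the double mutant. The groups overlapped, with a difference of 0.28 (SE 0.18, limma adjusted p = 0.27) where the first 2 promoters summed gave 0.99 (SE 0.11, limma adjusted p = 4.8e-05). The downstream difference hung on single libraries, at 0.098 without FLT3-ITD replicate 1 and 0.13 without double-mutant replicate 1, and up to 0.40 without double-mutant replicate 2, and it passed in none of these fits (limma adjusted p = 0.73, 0.66 and 0.14). This split of Myc was chosen after the values were seen. Relative to the first 2 promoters, the downstream sum was lower in the double mutant by 0.70 (log2 ratio with 1 CPM added to each sum, -3.97 ± 0.32 in FLT3-ITD and -4.68 ± 0.30 in the double mutant, SD over 3 libraries each). The groups did not overlap (two-sided exact permutation p = 0.10, the smallest that 3 libraries against 3 can give). FLT3-ITD replicate 1, at -4.35, stood next to double-mutant replicate 1, at -4.42.

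As a share of all Myc tags, downstream peaks held 4.40%, 6.37% and 6.60% in FLT3-ITD and 4.34%, 2.87% and 3.79% in the double mutant, ranges that were narrowly separate (two-sided exact permutation p = 0.10). The 95% Wilson intervals of the closest libraries, 3.76% to 5.16% in FLT3-ITD replicate 1 and 3.91% to 4.81% in double-mutant replicate 1, overlapped. Counted only over the tested Myc promoters, the shares of the groups overlapped (two-sided exact permutation p = 0.20).

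Use of the first promoter relative to the second was nearly the same in 5 of the 6 libraries. The first promoter held 22.7%, 30.0% and 29.5% of the tags of the pair in FLT3-ITD and 30.7%, 29.9% and 30.5% in the double mutant. FLT3-ITD replicate 1 stood apart, with a 95% Wilson interval of 21.2% to 24.2%, where the lowest bound among the others was 28.0%. The means were 27.4 ± 4.1% and 30.4 ± 0.44% (SD, n = 3 each), and the groups overlapped (two-sided exact permutation p = 0.20). The difference was 2.96 percentage points with all libraries and 0.59 without FLT3-ITD replicate 1. Without that library the rises of the 2 promoters were 1.01 and 0.97, where they were 1.14 and 0.93 with it. As a share of all Myc tags the first promoter held 21.7%, 28.1% and 27.5% in FLT3-ITD and 29.4%, 29.0% and 29.4% in the double mutant. Those ranges did not overlap, nor did its shares of the tags of tested Myc promoters (two-sided exact permutation p = 0.10 for each).

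A fit of start-site choice across the genome (limma diffSplice) set each promoter's log2 difference against the mean difference of the other tested promoters of its cluster, each counted alike whatever its level. Of 10842 promoters in such clusters, 4.98% passed, and of the 10 of Myc, 1 did. The first promoter rose by 0.85 more than the others (SE 0.26, limma diffSplice adjusted p = 0.041), and the second by 0.61 (SE 0.26, adjusted p = 0.16). The call at the first ended with a pseudocount of 0.5, at 0.80 (limma diffSplice adjusted p = 0.13). It also ended without any single library, at 0.72 to 0.93 (limma diffSplice adjusted p = 0.055 to 0.13). Of all 10842 promoters, 540 passed with all libraries and 179 to 462 with a library left out. On recovered tags, where edgeR's version of the test weighs promoters by their tags, 0 of 10 passed (1.64% of all 10842), with 3 at an unadjusted p under 0.05 (9.98% of all), and the first promoter differed from the gene by 0.18 (edgeR diffSpliceDGE adjusted p = 1). The 3 were the downstream peaks at 61819047 (-0.94, adjusted p = 0.071), 61819234 (-0.96, 0.17) and 61819346 (-1.02, 0.45), each lower relative to the gene as a whole.

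**Figure D4:**
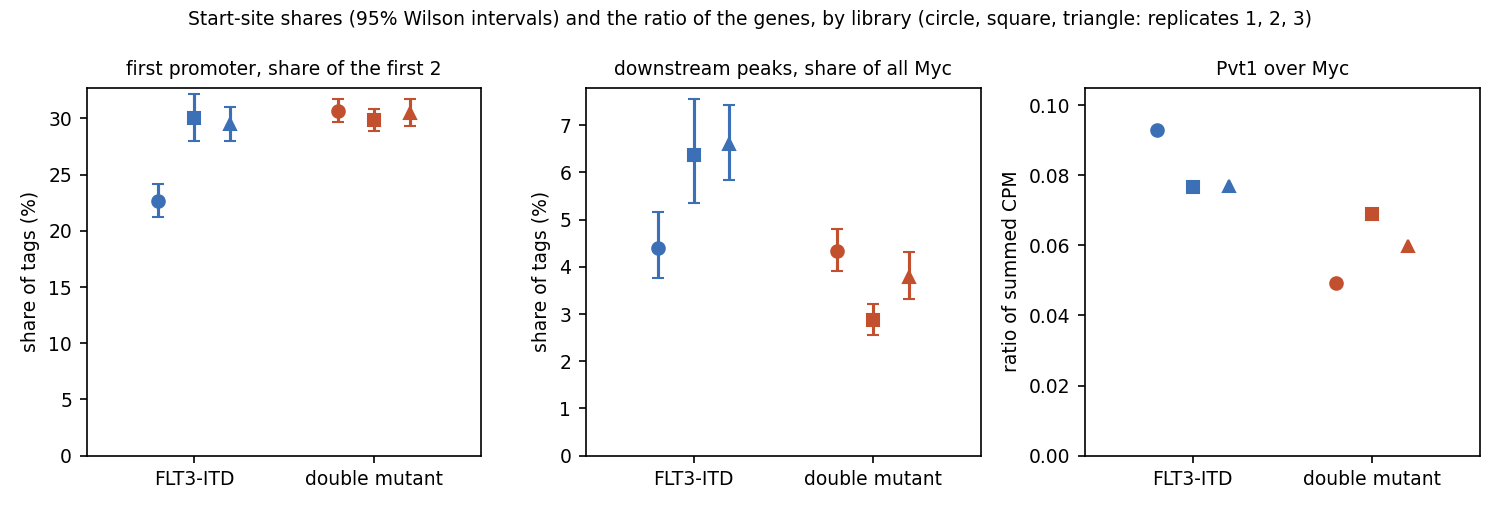
Left and middle, the share of tags in % of the first Myc promoter among the first 2 and of the downstream peaks among all Myc peaks, by library with 95% Wilson intervals (counting error only); right, the ratio of summed Pvt1 to summed Myc CPM. FLT3-ITD replicate 1 is low in the first panel at 22.7%, the downstream share is 4.40% to 6.60% in FLT3-ITD and 2.87% to 4.34% in the double mutant, and the ratio is lower in every double-mutant library.

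Pvt1 also rose, with a smaller difference that passed less firmly. Its main promoter, at 61869551 to 61869613, spanned 62 bp and had 27.8, 24.0 and 24.3 CPM in FLT3-ITD and 30.6, 45.5 and 32.6 CPM in the double mutant. The groups did not overlap, with a gap of under 3 CPM between the nearest libraries, and double-mutant replicate 2 stood well above the rest. The means were 25.4 ± 2.1 and 36.3 ± 8.1 CPM (SD, n = 3 each), a difference of 0.48 (SE 0.15, 95% interval 0.15 to 0.81, limma adjusted p = 0.034). Without double-mutant replicate 2 the difference was 0.31 (limma adjusted p = 0.051). The call also ended without FLT3-ITD replicate 1, 2 or 3, with differences of 0.55, 0.44 and 0.45 (limma adjusted p = 0.052 to 0.12). It ended with DESeq2 too (adjusted p = 0.059). Over all 19162 tested promoters, 4680 passed with all libraries and 3076 to 3505 without a FLT3-ITD library. Without double-mutant replicate 2, 5209 passed. With all libraries, 15.3% of all tested promoters rose more than the main Pvt1 promoter.

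The other 14 Pvt1 peaks were close to silent, at no more than 1.17 CPM in any library. Of them 6 had 0 tags in every library, and the other 8 together had 40 pooled tags in FLT3-ITD and 53 in the double mutant. The main promoter held 93.1% to 95.9% of Pvt1 tags in FLT3-ITD and 94.3% to 97.5% in the double mutant, ranges that overlapped (two-sided exact permutation p = 0.50). All 15 peaks summed gave 29.8, 24.98 and 25.4 CPM against 32.5, 46.6 and 34.1 CPM, a difference of 0.47 (SE 0.15, limma adjusted p = 0.034). This call ended with DESeq2 (adjusted p = 0.055) and with the replicate block (limma adjusted p = 0.055). It also ended without FLT3-ITD replicate 2 (difference 0.42, limma adjusted p = 0.13) or 3 (0.43, adjusted p = 0.11). Without double-mutant replicate 2 the difference was 0.31.

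Since CAGE counts 1 end per capped RNA, levels of the 2 genes can be set side by side with no correction for length. Pvt1 had 0.0930, 0.0767 and 0.0768 times the Myc level in FLT3-ITD and 0.0494, 0.0690 and 0.0599 times in the double mutant. Every double-mutant library was below every FLT3-ITD library, and these ratios do not depend on how the libraries are scaled. The log2 ratio, with 1 CPM added to each sum, fell by 0.49 (-3.56 ± 0.15 and -4.05 ± 0.24, SD, n = 3 each, two-sided exact permutation p = 0.10, the smallest possible here). The ratio was highest in FLT3-ITD replicate 1 and lowest in double-mutant replicate 1.

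Antisense tags were few. The one minus-strand peak with more than a few tags, at 61816712 to 61816729, ended 203 bp before the first Myc promoter and pointed away from it. It had 0.68, 0.51 and 0.88 CPM in FLT3-ITD and 1.51, 0.43 and 1.19 CPM in the double mutant, or 20 and 36 pooled tags. The double-mutant libraries lay both above and below those of FLT3-ITD, and the peak stayed under the minimum for testing. Of the other 5 minus-strand peaks, 3 had 0 tags in every library and the 2 in Pvt1 had 6 tags in all. Their sum with the first, at 0.80 ± 0.11 and 1.17 ± 0.64 CPM (SD, n = 3 each), gave a two-sided exact permutation p of 0.40. With no minimum on levels the sum differed by 0.22 (limma adjusted p = 0.62). It differed by 0.065 without double-mutant replicate 1, by 0.096 without replicate 3 and by 0.49 without replicate 2. The double-mutant sums themselves ran from 0.43 to 1.59 CPM, so a change was not detectable at this depth and spread.

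Few active promoters lay near the locus. In the 2000000 bp before the window 0 promoters could be tested, and in the 2000000 bp after it 7, from 63479445 on, of which 0 passed in limma (2 at an unadjusted p under 0.05, smallest adjusted p = 0.080), with a median difference of 0.16. edgeR also called 0 of the 7, with 1 at an unadjusted p under 0.05, and DESeq2 0, with 0. The most active of them, on the minus strand at 63891889 to 63891997, had 47.3 ± 2.3 and 56.7 ± 6.5 CPM (SD, n = 3 each; limma adjusted p = 0.14). Over all 19162 tested promoters, 24.4% passed in limma, 14.1% higher and 10.4% lower, and 7135 had an unadjusted p under 0.05. Of the same promoters, 4709 passed in edgeR and 3538 in DESeq2, with 7076 and 5578 at an unadjusted p under 0.05. Over chromosome 15 outside the window, 125 of 823 tested promoters were higher and 32 lower, with a median of 0.13. The first 2 Myc promoters, at 1.14 and 0.93, lay above that median and the main Pvt1 promoter, at 0.48, did too. All of them had already passed as higher, so nothing is read from their place above it.

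By a fixed rule, the 3 promoters most like the second Myc promoter over the 6 libraries were sought among 10246 others with a mean of at least 5 CPM. They lay on chromosome 12 at 83270446 to 83270471 (Pearson's r of log2 values 0.999), on chromosome 17 at 56214355 to 56214459 (0.998) and on chromosome 19 at 25073990 to 25074045 (0.998). The promoter on chromosome 12 had 33.8 ± 3.2 and 84.8 ± 11.5 CPM, that on chromosome 17 had 23.3 ± 1.4 and 37.6 ± 3.0 CPM, and that on chromosome 19 had 18.9 ± 2.0 and 47.6 ± 5.0 CPM (SD, n = 3 each). The same measure was 0.948 for the first Myc promoter and 0.859 for the main Pvt1 promoter. These values describe 6 libraries of 2 groups, so a promoter that is higher in the double mutant and varies little within each group tends to score high.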

How the data were processed

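Each library's deposited table gives CPM, which the authors made as tags scaled to 1000000 over all peaks; the submitters' processing notes name TopHat2 2.0.14, edgeR 3.24.3, hg19 and mm9 without roles, and tag filters and peak calling are not given in the sources used here. All values were whole multiples of the smallest (tolerance 0.01), so tags could be recovered. The main test was limma 3.58.1 (R 4.3.3; trend, robust; group as the only term; Benjamini-Hochberg, threshold 0.05, two-sided) on log2(CPM + 1) of promoters with at least 1 CPM in at least 3 libraries. For gene sums, same-strand peaks with tags were chained at 1000 bp, and the Myc, Pvt1 and antisense peaks each formed 1 sum. edgeR 4.0.16 and DESeq2 1.42.0 on recovered tags were alternatives. The limma fits of promoters and of sums, edgeR on promoters and limma diffSplice were tried on simulated data. DESeq2, edgeR's version of the start-site test, the replicate block and TMM scaling were not. No library repeated another (tags of libraries of 1 group differed by 3.77 to 20.2 times the sampling variance). Every tested peak of the window is named. Members, lists and tests were chosen with earlier results of these data known. The planned Myc partners and targets, cell type markers and a check of the FLT3 construct were not analysed here, since peaks carry no gene names.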

Additional observations from a re-analysis of the deposited data

How the results depend on the processing

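The rise of the first and the second Myc promoter, of their sum and of the Myc sum kept its direction and its side of the threshold in all 56 refits (other pseudocounts, minimum levels, TMM scaling, edgeR, DESeq2, a replicate block and single libraries left out), with differences from 0.87 to 1.21. The Pvt1 sum differed by 0.43 with DESeq2 (adjusted p = 0.055), by 0.47 with the replicate block (limma adjusted p = 0.055) and by 0.31 to 0.56 with single libraries left out, where it did not pass without FLT3-ITD replicate 2 (limma adjusted p = 0.13) or 3 (0.11). The main Pvt1 promoter differed by 0.45 with DESeq2 (adjusted p = 0.059) and by 0.31 to 0.59 with libraries left out. The count of changed promoters at the locus was 2 with DESeq2 and 2 to 3 with libraries left out, where it was 4 in the main fit. Over all 19162 tested promoters, 4680 passed in the main fit, 3538 with DESeq2 and 3076 to 5209 with a library left out. The count for start-site choice at Myc was 0 with a pseudocount of 0.5, 0 with the replicate block, 0 with edgeR's version and 0 with any single library left out. It was 1 with other clusters chained at 500 or 5000 bp, which left the Myc cluster as it was and moved only the pooled error and the adjustment. Over all 10842 promoters in clusters, 540 passed for start-site choice in the main fit and 465 with a pseudocount of 0.5. With the replicate block 272 passed, with edgeR's version 178, and with a library left out 179 to 462. Across these settings, causes were not tested.

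Direction reversed only among promoters that did not pass. At 61819047 the difference was -0.0036 with TMM scaling, -0.036 with edgeR, -0.058 with DESeq2 and -0.28 to 0.23 with libraries left out; at 61819346, -0.11 with edgeR, -0.030 with DESeq2 and -0.12 to 0.27 with libraries left out; at 61818593, -0.032 to 0.21, and at 61819234, -0.38 to 0.19, with libraries left out. In start-site choice the second Myc promoter gave -0.031 with edgeR's version.

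Libraries were not treated as paired by their replicate number, since departures from the group means correlated at only -0.01, 0.02 and 0.19 between libraries that share a number; with the replicate block 4109 promoters passed in place of 4680, the Myc sum differed by 0.95 (limma adjusted p = 0.00063), and the promoter at 61819573 did not pass (0.062). edgeR's version of the start-site test and the split of Myc were chosen after seeing the data. Depth limits low peaks, since 1 tag is worth up to 0.170 CPM.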
